A study of Mus musculus with 288 samples.

Results

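The cells described here were 58 Gcg-high cells of the mouse upper small intestine, divided by their Pyy level into 32 Pyy-positive and 26 Pyy-low cells, out of 288 sequenced cells. A cell entered when it had at least 20000 reads on mouse genes, at most 20% of them on mitochondrial genes, and at least 10000 CPM of Gcg, where CPM is the number of reads on a gene per 1000000 reads on mouse genes in that cell. It was called Pyy-positive at 100 CPM of Pyy or more and Pyy-low below that. Male GLU-Venus mice on a C57BL6 background, aged 20 to 21 weeks, were the donors of all cells, and both sides of the comparison share the transgene, which drives the fluorescent protein Venus from the proglucagon promoter. Cells were freed with collagenase, sorted into wells and sequenced by Smart-seq2, a full-length cDNA protocol without strand or molecular identifiers. The labels assign each cell to 1 of 3 pools of 96 cells (SLX-11175, SLX-11179 and SLX-9703) and call all of them L-cells. They tie no cell to a mouse or to its Venus fluorescence. By the study's methods fluorescent and non-fluorescent cells were collected and 1 animal was sequenced more deeply. Each pool is taken here as 1 replicate, so tests compare 3 Pyy-positive with 3 Pyy-low sums of counts.

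L-cells are enteroendocrine cells of the gut epithelium that release glucagon-like peptide 1, cut from the product of Gcg, and peptide YY, the product of Pyy. Both hormones act on appetite, and glucagon-like peptide 1 also raises insulin secretion when glucose is high. Pyy is known to be most abundant in L-cells of the distal gut, while upper intestinal endocrine cells often make cholecystokinin, secretin, ghrelin or GIP beside proglucagon products. The question of this comparison is which other genes separate Gcg-rich cells with Pyy from Gcg-rich cells without it.

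The cells were chosen by their measured Pyy and Gcg, so the levels of both are a description without a test. Pyy (ENSMUSG00000017311, mm10 chr11:102106676-102107832, minus strand) was spread widely among the Pyy-positive cells. In pool SLX-11175 it ran from 102 to 15864 CPM with a median of 404 CPM, in pool SLX-11179 from 340 to 7344 CPM with a median of 1280 CPM, and in pool SLX-9703 from 111 to 4297 CPM with a median of 791 CPM. Of the 32 cells, 15 had 1000 CPM or more and 5 lay under 200 CPM. The Pyy-low cells were mostly far below the threshold: 24 of 26 were under 20 CPM and 14 had no Pyy read. A count of 0 still allows up to 3 reads, which corresponds to between 0.713 and 77.99 CPM at the depth of these 14 cells, a limit that covers counting error only. Just below the threshold the highest Pyy-low cell had 56.8 CPM, and just above it the lowest Pyy-positive cell had 102 CPM. The fewest Pyy reads in a Pyy-positive cell were 4.

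Pyy-positive cells made up 57.9% of the Gcg-high cells in pool SLX-11175 (11 of 19), 47.4% in pool SLX-11179 (9 of 19) and 60% in pool SLX-9703 (12 of 20). The exact Clopper-Pearson 95% intervals were 33.5 to 79.7%, 24.4 to 71.1% and 36.1 to 80.9%, so the 3 shares lay within each other's counting error. Over all pools the share was 55.2%. Gcg (ENSMUSG00000000394, chr2:62474530-62483650, minus strand) was higher on the Pyy-positive side of every pool. In summed counts it had 83935 CPM in Pyy-low and 111271 CPM in Pyy-positive cells of pool SLX-11175, 110823 and 113210 CPM in pool SLX-11179, and 93166 and 195963 CPM in pool SLX-9703. The cell medians of Gcg were close in the shallow pools, at 67767 against 84506 CPM and 92245 against 97364 CPM, and further apart in pool SLX-9703, at 86897 against 161305 CPM. The cells of both sides thus overlapped in Gcg.

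**Figure D1:**
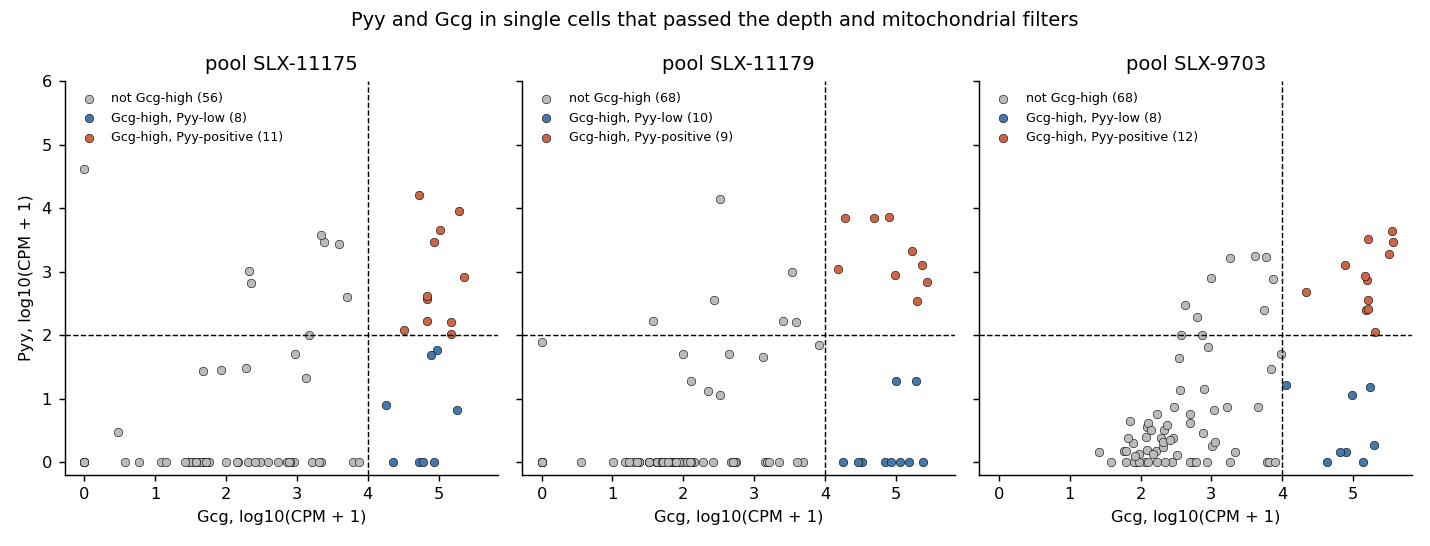
Level of Pyy (vertical axis, log10 of CPM + 1) against Gcg (horizontal axis, log10 of CPM + 1) in each cell that passed the depth and mitochondrial filters, 1 panel per pool; dashed lines mark 10000 CPM of Gcg and 100 CPM of Pyy. The 32 Pyy-positive and 26 Pyy-low cells overlap in Gcg, with the highest levels, up to 361155 CPM, in Pyy-positive cells and 241936 CPM the highest of the Pyy-low side, and 14 of the Pyy-low cells lie at 0 Pyy.

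Pyy was also found outside the Gcg-high cells. Of 192 other cells that passed the filters, 21 (10.9%) had 100 CPM of Pyy or more: 7 of 56 in pool SLX-11175, 6 of 68 in pool SLX-11179 and 8 of 68 in pool SLX-9703. Their median Gcg was 2190 CPM, and 12 of them had at least 1000 CPM of Gcg. The highest Pyy level of all, 40926 CPM, was in such a cell, while 114 of the 192 had no Pyy read.

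Depth and quality differed between pools more than between sides. Median reads on genes were 59478 in Pyy-low and 60624 in Pyy-positive cells of pool SLX-11175, 67032 and 87822 reads in those of pool SLX-11179, and 2858298 and 2337548 in pool SLX-9703. Median mitochondrial shares lay between 2.13% and 4.32% over the 6 pool and side groups. A median of 3936 to 4120 genes was detected per cell in the shallow pools and of 9362 to 9940 in the deep pool. Spike-in shares had medians of 2.60 to 3.13% in the shallow pools and 15.7 to 17.9% in the deep pool. The sums held 642323 to 901347 reads in the shallow pools and 24266462 and 28313616 reads in pool SLX-9703. No 2 cells held identical counts. Beyond Pyy and Gcg, other L-cell markers were read on both sides, though not all of them widely. Ffar1, the receptor for long-chain fatty acids, was read in 26 of 26 Pyy-low and 32 of 32 Pyy-positive cells. Gpr119, the receptor for oleoylethanolamide and related lipids, was read in 21 of 26 and 22 of 32. Chga and Chgb were read in all 58 cells. Abcc8 was read in 24 of 26 and 31 of 32, and Il6ra in 19 of 26 and 26 of 32. Trpa1 was read in only 6 of 26 and 10 of 32.

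Pyy and Gcg were fitted with the other genes but are not counted, since the choice of cells used them. With edgeR (quasi-likelihood F test, pools as blocks), 0 of the 6420 other genes (0%) passed a false discovery rate of 0.05, and the lowest adjusted p was 0.999. Without adjustment, 189 genes (2.94%) had p under 0.05, 87 higher (1.36%) and 102 lower (1.59%) in Pyy-positive cells. On the same sums DESeq2 called 19 genes (0.296%), 2 higher and 17 lower. With limma on the mean of log2(CPM + 1) over cells, 2 genes (0.0312%) passed, both higher. The median log2 fold change over the 6420 genes was 0.00. In the paragraphs below, a fold change is the fitted log2 ratio of Pyy-positive over Pyy-low with its standard error, levels are TMM-normalised CPM of summed counts in the order SLX-11175, SLX-11179 and SLX-9703, and the edgeR adjusted p of every tested gene named is 0.999. An adjusted p quoted from DESeq2, limma or a set without 1 pool stands beside other alternatives that reached 0.999 or 1.00 for the same gene. As a background for statements on direction, 13.01% of the 6420 genes were higher and 12.02% lower in Pyy-positive cells in all 3 pools, and the 3 sums of one side lay wholly above those of the other in 4.80% and wholly below in 4.33%. The scale bears on these orders, since TMM factors differed between the sides of a pool, for example 1.3543 in Pyy-low and 1.0794 in Pyy-positive cells of pool SLX-9703. With sums scaled by total reads alone (an alternative added after seeing the data), 0 other genes passed with edgeR, the median log2 fold change moved to -0.19, 39 genes were higher and 167 lower at an unadjusted p under 0.05, and the shares of genes higher and lower in all pools became 7.91% and 18.1%. Counts of genes higher or lower in all pools are on the TMM scale. By total reads the named genes Cck, Sct, Ghrl, Ucn3, Rab3c, St18 and Neurod1 no longer kept 1 order in all 3 pools. Nor did Ffar1, Cacna1d, Creb3l1, Anpep and Rbp2. Fev, Kcnh2, Ddc, Pdxdc1 and Tff3 kept the order but with overlapping groups.

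The upper intestinal hormones were present on both sides. Cck, which encodes cholecystokinin, was read in all 58 cells and reached 10000 CPM in 24 of 26 Pyy-low and 32 of 32 Pyy-positive cells. Its level was 113377, 130241 and 116757 CPM in Pyy-low and 133831, 218433 and 132052 CPM in Pyy-positive cells. Every Pyy-positive sum lay above every Pyy-low sum by 1.18-fold, 1.68-fold and 1.13-fold within the pools, and the fold change was 0.39 ± 0.24 (SE). Scaled by total reads alone, Cck was instead lower in Pyy-positive cells of pool SLX-9703, at 150235 against 137244 CPM. The cell medians of Cck were 149784 against 120824, 90094 against 137099 and 134880 against 138523 CPM, lower on the Pyy-positive side of pool SLX-11175. Cck passed at an adjusted p of 0.0351 with limma on the mean log level, while DESeq2 gave 0.966.

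Sct, which encodes secretin, the hormone that stimulates bicarbonate secretion, had 12666, 10306 and 17382 CPM in Pyy-low and 18047, 33876 and 19346 CPM in Pyy-positive cells. The groups did not overlap, with a fold change of 0.79 ± 0.34 and an unadjusted edgeR p of 0.0492. Over the alternatives the fold change ran from 0.35, without pool SLX-11179, to 1.19. Without the low-count filter Sct passed with edgeR (adjusted p = 0.00158), while DESeq2 gave an adjusted p of 0.501. By total reads alone the groups overlapped, and pool SLX-9703 had 22365 CPM in Pyy-low against 20107 CPM in Pyy-positive cells. Single cells ranged over orders of magnitude on both sides, from 204 to 51313 CPM in Pyy-low and from 607 to 64904 CPM in Pyy-positive cells of pool SLX-11179. Ghrl, which encodes ghrelin and overlaps Gm26982 and Gm44033 in the annotation, had 14409, 7370 and 11587 CPM against 18289, 12019 and 13051 CPM. Its summed level was higher on the Pyy-positive side of each pool, though not of pool SLX-9703 by total reads alone, and the groups overlapped (fold change 0.41 ± 0.24). The cell medians of Ghrl were 741 against 680, 727 against 4730 and 6553 against 5711 CPM. They were lower on the Pyy-positive side of pools SLX-11175 and SLX-9703.

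Nts, which encodes neurotensin, went in different directions in the pools. Pyy-low cells had 1264 CPM against 78.4 CPM in pool SLX-11175, 178 against 760 CPM in pool SLX-11179 and 3.62 against 53.4 CPM in pool SLX-9703. Single cells carried much of this: 1 Pyy-positive cell held 95.1% of the Nts reads of its sum in pool SLX-9703. Without pool SLX-11175 the fold change of Nts was 2.95 and passed with edgeR (adjusted p = 0.0155), and without pool SLX-9703 it was -0.92. Ucn3, the gene of urocortin 3, was low on both sides, at 32.9, 20.1 and 26.5 CPM in Pyy-low and 56.7, 33.2 and 31.7 CPM in Pyy-positive cells. It was read in 10 of 26 and 17 of 32 cells. By total reads alone Ucn3 was lower in Pyy-positive cells of pool SLX-9703. Sst and Ppy, the genes of somatostatin and pancreatic polypeptide, had no read in these 58 cells; this allows up to 5.17% of cells with a read at these depths by counting error, and does not limit how many express them. Of the 28 listed hormones, 6 other than Pyy and Gcg were tested. Of these 6, 4 were higher and 1 lower in all 3 pools, against 13.01% and 12.02% of all genes, and their median log2 fold change was 0.49. The 4 were Cck, Sct, Ghrl and Ucn3, and by total reads alone each of them lost that order.

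Gip, which encodes the K-cell hormone glucose-dependent insulinotropic polypeptide (chr11:96024545-96030831, plus strand), had the lowest fold change of the hormones. Its level was 48758, 4624 and 1469 CPM in Pyy-low and 30.03, 109 and 103 CPM in Pyy-positive cells. The groups did not overlap: Pyy-low sums were higher by 1624-fold, 42.5-fold and 14.2-fold. The fold change was -6.11 ± 1.28 with an unadjusted edgeR p of 0.00160, and DESeq2 gave an adjusted p of 0.0128. Most of these reads came from few cells. One cell alone held 93.8%, 98.9% and 77.5% of the Pyy-low Gip reads of the 3 pools.

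At 10000 CPM of Gip or more there were 4 cells, 2 in pool SLX-11175 and 1 in each other pool, and all 4 were Pyy-low, with 36405, 202354, 22882 and 11717 CPM of Gip and between 0 and 6.94 CPM of Pyy. Their Gcg was 53174, 17954, 28681 and 135588 CPM. Without these cells the summed Gip was 48.2 against 28.02 CPM, 55.97 against 83.1 CPM and 485 against 107 CPM (Pyy-low first, CPM of the summed reads), the directions differed between pools, and the fold change was -0.66. Without them a Gip read was found in 17 of 22 Pyy-low and 28 of 32 Pyy-positive cells.

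Several other K-cell genes had lower levels in Pyy-positive cells as well. Fabp5 and Cnr1 were already known from K-cells, and the study describes them, like Adora3 and Scarb1, in a Gip-rich cluster of these same cells, so the direction of the list is not independent evidence. Of 10 listed genes 5 were tested, 3 of them (Gip, Cnr1 and Fabp5) had unadjusted edgeR p under 0.05, all lower in Pyy-positive cells, and the median log2 fold change of the 5 was -2.75. Cnr1, the cannabinoid receptor 1, had 79.96, 121 and 15.2 CPM in Pyy-low and 5.005, 12.1 and 3.53 CPM in Pyy-positive cells. The groups did not overlap, the fold change was -3.02 ± 0.65, and DESeq2 gave an adjusted p of 0.0127. Without the 4 Gip-rich cells it was 36.6 against 4.67, 20.5 against 9.24 and 20.8 against 3.67 CPM of summed reads, lower on the Pyy-positive side of each pool, with a fold change of -2.01. These remaining Pyy-low reads again lay mostly in 1 cell per pool, and without that cell too the levels were 2.21 against 4.67, 6.44 against 9.24 and 4.85 against 3.67 CPM, so that the order was turned in both shallow pools (a check chosen after the values were seen). In the deep pool that cell had 3645 CPM of Gip. The cell medians of Cnr1 over all cells were 11.7 against 0, 8.39 against 11.4 and 3.49 against 2.67 CPM. Fabp5, a fatty acid binding protein, had 246, 293 and 34.8 CPM against 11.7, 16.6 and 38.9 CPM. It was lower in both shallow pools and, by total reads alone (44.8 against 40.4 CPM), also in pool SLX-9703 (fold change -2.75 ± 0.99) and was -0.59 without the Gip-rich cells. Scarb1, a lipoprotein receptor, had 43.9, 34.3 and 5.60 CPM against 6.67, 16.6 and 2.48 CPM (fold change -1.58 ± 0.86; it overlaps Gm42633). Lpl, lipoprotein lipase, went the other way, at 6.27, 15.4 and 1.38 CPM against 21.7, 24.2 and 2.24 CPM (fold change 1.01 ± 1.00).

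**Figure D2:**
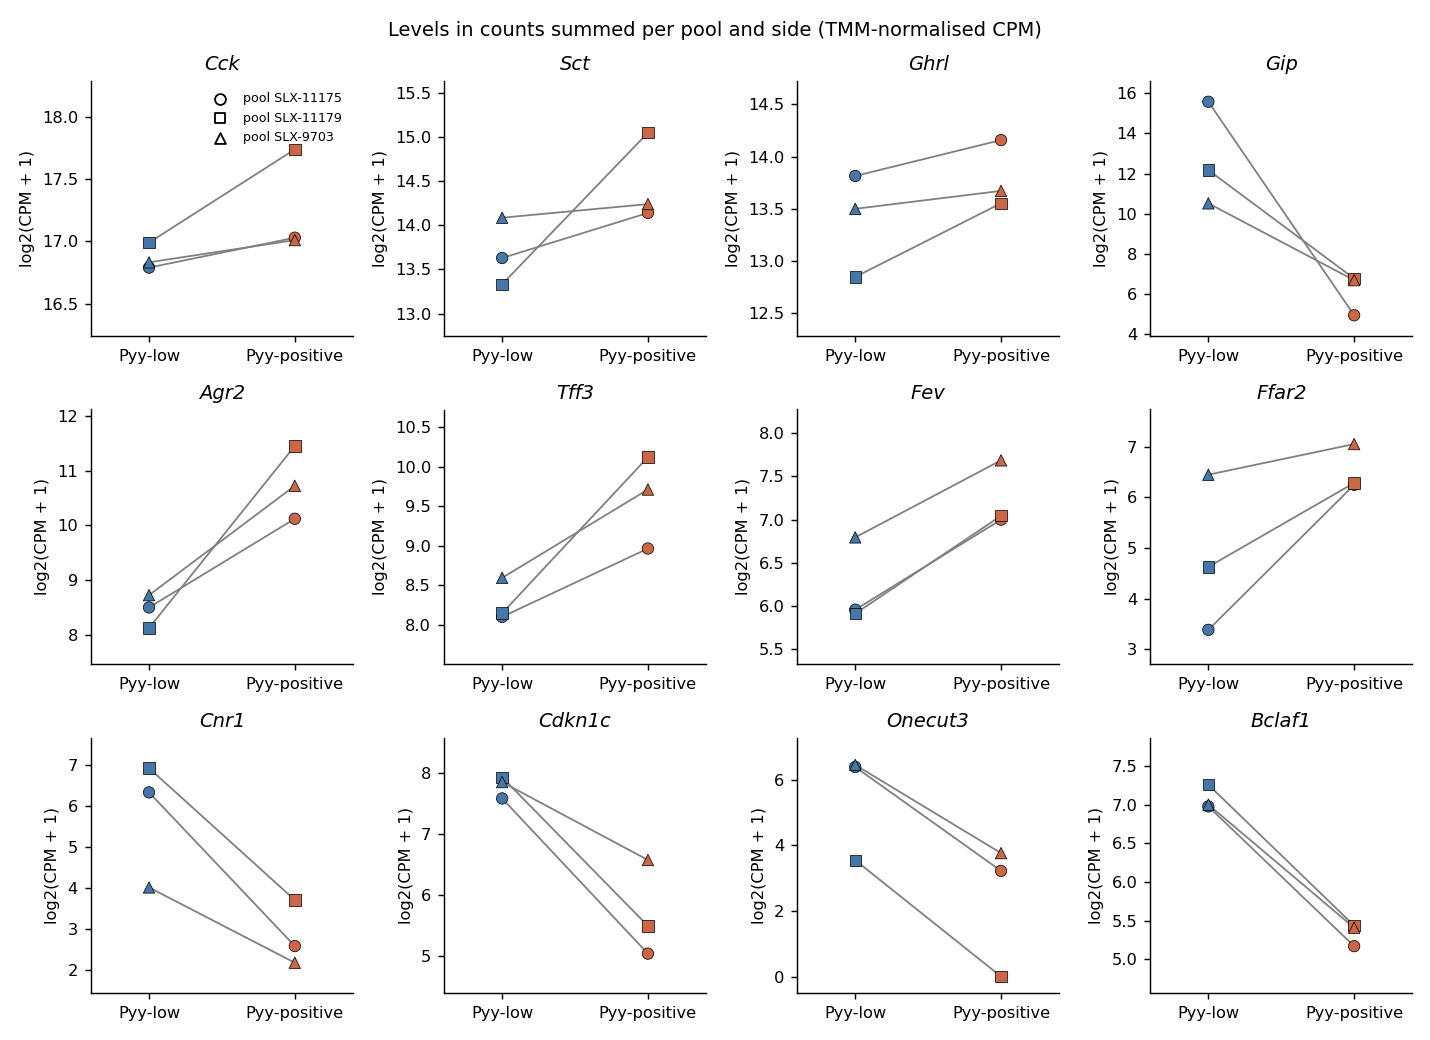
Level of 12 genes in counts summed per pool and side (vertical axes, log2 of TMM-normalised CPM + 1, each with its own range that does not start at 0); lines join the Pyy-low and Pyy-positive sums of 1 pool and symbols mark the pools. Agr2, Tff3 and Fev lie higher and Gip, Cnr1, Cdkn1c, Onecut3 and Bclaf1 lower on the Pyy-positive side of each pool.

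A pair of genes known from goblet cells was higher in Pyy-positive than in Pyy-low cells, but was not particular to Pyy-positive cells. Agr2, a protein disulfide isomerase of the endoplasmic reticulum that mucus-secreting cells need (chr12:35992907-36004087, plus strand), had 361, 278 and 422 CPM in Pyy-low and 1113, 2803 and 1691 CPM in Pyy-positive cells. The groups did not overlap, with 3.09-fold, 10.1-fold and 4.01-fold higher levels within the pools. The fold change was 2.31 ± 0.38, and the unadjusted edgeR p of 0.000368 did not pass the adjustment. Agr2 did pass with DESeq2 (adjusted p = 1.41e-08) and with limma on the mean log level (adjusted p = 0.00833), and over all alternatives its adjusted p ran from 5.05e-11 to 1.00 and its fold change from 1.02, with cells taken from 3000 CPM of Gcg, to 3.34, with Pyy-low cells taken only under 10 CPM of Pyy. It was read in 18 of 26 Pyy-low and 29 of 32 Pyy-positive cells, and reached 1000 CPM in 4 and 13 of them. The cell medians were 364 and 220 CPM in pool SLX-11175, where the Pyy-positive median was the lower one, 20.1 and 1119 CPM in pool SLX-11179, and 46.7 and 517 CPM in pool SLX-9703. In pool SLX-11175 the higher sum therefore came from a few Agr2-rich cells, while in the other pools the cell median was higher as well. The highest Gcg-high cell had 6228 CPM of Agr2. Outside the Gcg-high cells, a cell of pool SLX-9703 had 10300 CPM of Agr2 and 0.804 CPM of Pyy. A cell of pool SLX-11179 had 6932 CPM of Agr2 and no Pyy read. Other cells outside had no Agr2 read.

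Tff3, a trefoil peptide that goblet cells secrete (chr17:31125306-31129646, minus strand), had 274, 283 and 386 CPM in Pyy-low and 499, 1112 and 837 CPM in Pyy-positive cells. These groups did not overlap either, though they did by total reads alone (fold change 1.32 ± 0.32, unadjusted edgeR p = 0.00360, DESeq2 adjusted p = 0.0152). With limma on the mean log level it did not pass (adjusted p = 0.949), and its fold change ran from 0.52, at 3000 CPM of Gcg, to 1.67 over the alternatives. The cell medians were 260 and 247 CPM in pool SLX-11175, where the Pyy-positive median was again the lower one and 1 cell held 48.5% of the Pyy-positive reads, 249 and 467 CPM in pool SLX-11179, and 309 and 674 CPM in pool SLX-9703. It was read in 25 of 26 and 30 of 32 cells, and the highest Gcg-high cell had 3018 CPM. The Agr2-rich cells named above from outside the Gcg-high cells had 8895 CPM of Tff3 in pool SLX-9703 and 10374 CPM in pool SLX-11179. The summed level of the 9 goblet markers was 583 to 826 CPM in Pyy-low and 1642 to 3918 CPM in Pyy-positive cells and came almost wholly from these 2 genes. Muc2, the main intestinal mucin, had 1 read in 1 Pyy-low cell and none in the 32 Pyy-positive cells (0 of 32 allows up to 9.38% of cells with a read at these depths by counting error, which does not limit how many express the gene). Clca1 and Ccl9 had no read, and Fcgbp, an Fc-binding mucus protein, was at 15.7, 5.92 and 16.4 CPM against 28.4, 1.51 and 6.90 CPM.

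**Figure D3:**
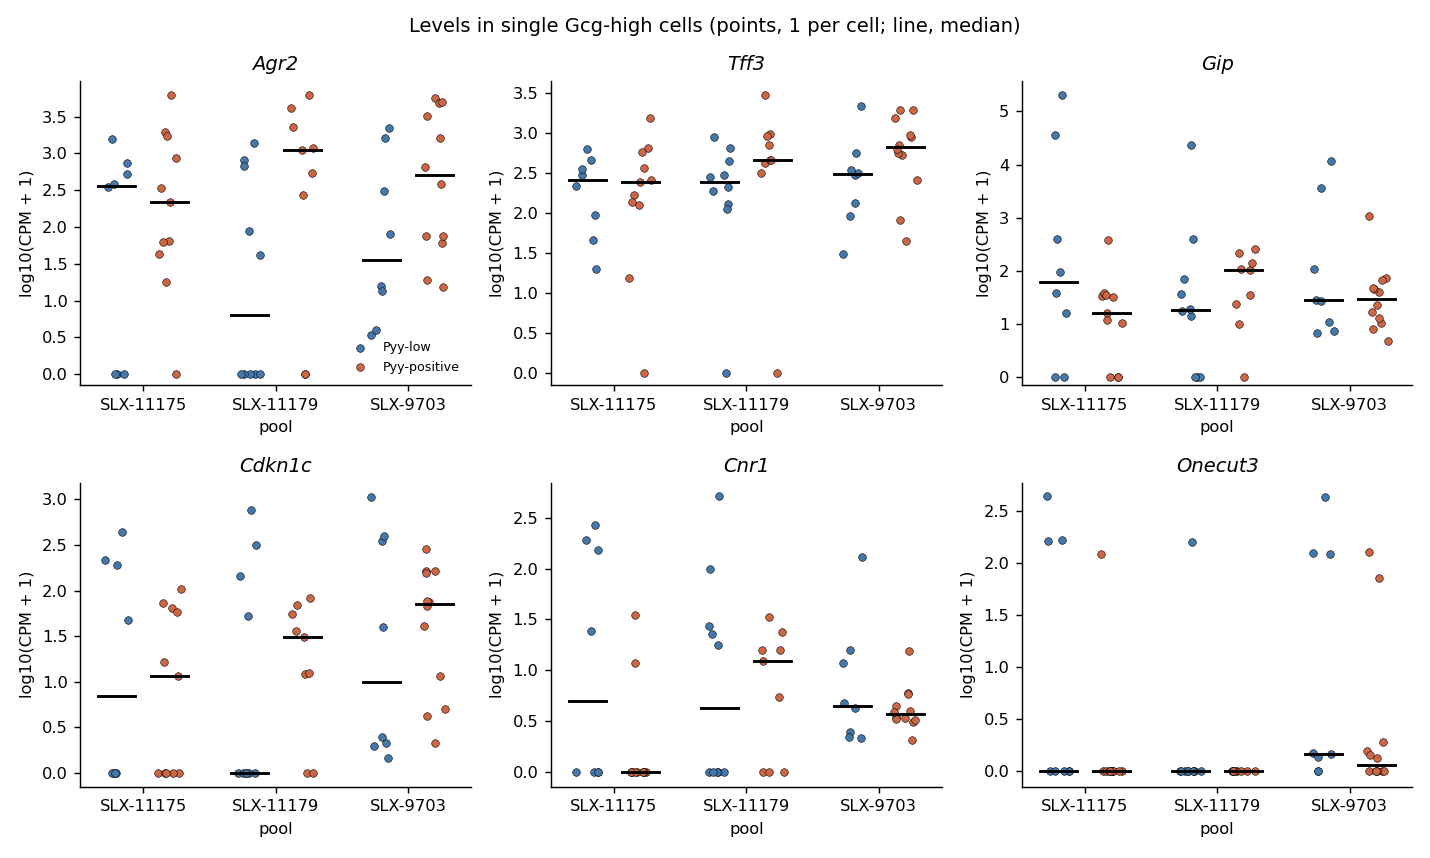
Level of 6 genes in single Gcg-high cells (vertical axes, log10 of CPM + 1) by pool and side; each point is 1 cell and each line the median. Agr2 reaches 1000 CPM in 13 of 32 Pyy-positive and 4 of 26 Pyy-low cells, while the high Gip, Cnr1, Cdkn1c and Onecut3 levels of the Pyy-low side sit in few cells.

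Among 17 tested transcription factors of endocrine cells, 4 were higher and none lower in all 3 pools, none passed, and their median log2 fold change was 0.04. Fev, an ETS factor of enteroendocrine and serotonin cells, had 61.1, 59.2 and 110 CPM in Pyy-low and 127, 131 and 205 CPM in Pyy-positive cells. It was about equally higher in the pools, by 2.07-fold, 2.22-fold and 1.86-fold, with a fold change of 1.03 ± 0.34 (unadjusted edgeR p = 0.0183). The groups did not overlap on the TMM scale but did by total reads alone. St18, a zinc finger factor, had 51.7, 62.8 and 71.96 CPM against 68.4, 112 and 80.03 CPM (fold change 0.46 ± 0.41). Neurod1, a basic helix-loop-helix factor that endocrine cells retain, had 441, 648 and 764 CPM against 686, 858 and 901 CPM (0.43 ± 0.26). By total reads alone Neurod1 was lower in Pyy-positive cells of pool SLX-9703.

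Onecut3, a homeodomain factor listed among the genes of gut regional identity, was the exception in its list of 6 tested genes, whose median log2 fold change was -0.01. It had 83.1, 10.7 and 86.8 CPM in Pyy-low and 8.34, 0 and 12.6 CPM in Pyy-positive cells (fold change -3.29 ± 0.76, unadjusted edgeR p = 0.00286, DESeq2 adjusted p = 0.0362). The sums overlapped, since the lowest Pyy-low sum lay below the highest Pyy-positive one. Its reads were few and uneven: 10 of 26 Pyy-low and 7 of 32 Pyy-positive cells had one, and a single cell held 43.4%, 100% and 69.9% of the Pyy-low reads. It overlaps 2610034O05Rik in the annotation. Over the alternatives its fold change ran from -4.27 to -1.55, with -1.55 at 3000 CPM of Gcg, -1.59 on mean log levels, -2.03 with Pyy-positive cells taken from 50 CPM and -3.29 without the 4 Gip-rich cells.

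None of the nutrient sensors and receptors passed with edgeR, and members went in both directions. Of 14 tested nutrient sensing genes, 3 were higher and 1 lower in all pools, with a median log2 fold change of 0.05. Ffar2, the receptor for short-chain fatty acids, had 9.41, 23.7 and 86.4 CPM in Pyy-low and 75.1, 77.04 and 132 CPM in Pyy-positive cells (fold change 1.64 ± 0.56, unadjusted edgeR p = 0.0203). It was higher in each pool, but the shallow Pyy-positive sums lay below the deep Pyy-low sum. A read was found in 15 of 26 Pyy-low and 27 of 32 Pyy-positive cells, and in the shallow pools in 4 of 8 against 8 of 11 and 3 of 10 against 8 of 9, while in pool SLX-9703 it was 8 of 8 against 11 of 12. Ffar1 had 146, 259 and 154 CPM against 284, 289 and 201 CPM (0.49 ± 0.32), but by total reads alone it was lower in Pyy-positive cells of pool SLX-11179. Gpr119 had 124, 108 and 62.1 CPM against 93.4, 69.5 and 196 CPM, with the sides in opposite order in the deep pool (0.22 ± 0.54). Of 7 tested hormone and transmitter receptors, 1 was higher and 2 lower in all pools: beside Cnr1 the lower one was Avpr1b, a vasopressin receptor, at 18.8, 18.9 and 9.74 CPM against 5.005, 0 and 3.06 CPM (-2.58 ± 1.34).

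Of 11 tested ion channels, 4 were higher and 1 lower in all pools, with a median log2 fold change of 0.47. Kcnb2, a voltage-gated potassium channel, was the channel with an unadjusted edgeR p under 0.05, at 36.1, 66.3 and 54.8 CPM in Pyy-low and 102, 169 and 88.4 CPM in Pyy-positive cells, which did not overlap (fold change 1.16 ± 0.40, p = 0.0207). Kcnh2, the ERG potassium channel, had 3.14, 8.29 and 9.45 CPM against 11.7, 15.1 and 25.8 CPM (1.37 ± 0.97), and Cacna1d, an L-type calcium channel subunit, 4.70, 7.11 and 12.1 CPM against 40.04, 12.1 and 13.9 CPM (1.23 ± 1.03). Both overlap other annotated genes, Gm15589 and, for Cacna1d, Chdh and Dcp1a among others. In cyclic AMP signalling 14 genes were tested, with 3 higher and 2 lower in all pools and a median of 0.17. Adcy6, an adenylyl cyclase, had 25.1, 9.47 and 8.87 CPM against 48.4, 21.1 and 17.7 CPM (1.03 ± 0.73), and Pde4d, a phosphodiesterase, 7.84, 24.9 and 13.9 CPM against 16.7, 48.3 and 17.5 CPM (0.76 ± 0.75). The member with an unadjusted edgeR p under 0.05 was Rgs2, a regulator of G protein signalling, at 111, 115 and 324 CPM against 115, 33.2 and 101 CPM (-1.15 ± 0.46, p = 0.0391), which was lower in Pyy-positive cells of 2 pools and overlapped between the sides.

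In the secretory apparatus no tested gene passed with edgeR. None of 11 tested granins and prohormone processing genes went the same way in all pools, against 13.01% and 12.02% of all genes, and their median log2 fold change was 0.02. Chgb, the granin secretogranin 1, had 17001, 16084 and 26412 CPM in Pyy-low and 13291, 21398 and 26351 CPM in Pyy-positive cells (0.02 ± 0.25). Pcsk1, the convertase that cuts proglucagon to glucagon-like peptide 1, had 585, 355 and 420 CPM against 197, 376 and 530 CPM (-0.36 ± 0.42), and Cpe, carboxypeptidase E, 2899, 4052 and 5168 CPM against 3006, 4013 and 4054 CPM (-0.10 ± 0.24). Of 17 tested exocytosis genes, 3 were higher and 2 lower in all pools (median 0.22). Cplx1, a complexin that binds the SNARE complex, had 23.5, 101 and 47.8 CPM against 16.7, 4.53 and 2.21 CPM (-3.26 ± 1.04, unadjusted edgeR p = 0.0148) with a read in only 5 of 26 and 6 of 32 cells. Rab3c, a vesicle GTPase, had 9.41, 10.7 and 28.5 CPM against 23.4, 52.9 and 32.96 CPM (1.23 ± 0.77).

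Of 25 tested genes of the endoplasmic reticulum's secretory pathway, 5 were higher and 1 lower in all pools, with a median of -0.00. The named ones are both membrane-bound transcription factors of the CREB3 family. Creb3l2 had 1.57, 40.3 and 6.12 CPM in Pyy-low and 21.7, 84.6 and 22.2 CPM in Pyy-positive cells (1.94 ± 0.76, unadjusted edgeR p = 0.0348), and Creb3l1 10.97, 58.03 and 45.3 CPM against 31.7, 128 and 51.2 CPM (0.89 ± 0.51). In BMP signalling, 4 of 10 tested genes were higher and none lower in all pools, none passed, and the median was 0.76. The receptors Acvr1 and Acvr1b had 0, 13.03 and 15.4 CPM against 5.005, 60.4 and 19.7 CPM (1.66 ± 1.04) and 0, 5.92 and 16.3 CPM against 3.34, 16.6 and 21.2 CPM (1.31 ± 1.19). Id1, a target of the pathway, differed between pools, with 6.27, 14.2 and 99.5 CPM against 168, 60.4 and 69.4 CPM. Of 8 tested Notch and Wnt genes, 1 was lower in all pools: Hes6, at 70.5, 36.7 and 61.5 CPM against 45.04, 21.1 and 45.7 CPM (-0.61 ± 0.49). Of 17 tested genes of dissociation and early response, 2 were lower in all pools (median -0.16). Junb, an AP-1 factor that overlaps Prdx2, had 185, 168 and 266 CPM against 157, 43.8 and 135 CPM (-1.03 ± 0.41), and the chaperone Hspa8 45.5, 52.1 and 84.5 CPM against 36.7, 46.8 and 80.9 CPM (-0.17 ± 0.44).

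**Figure D4:**
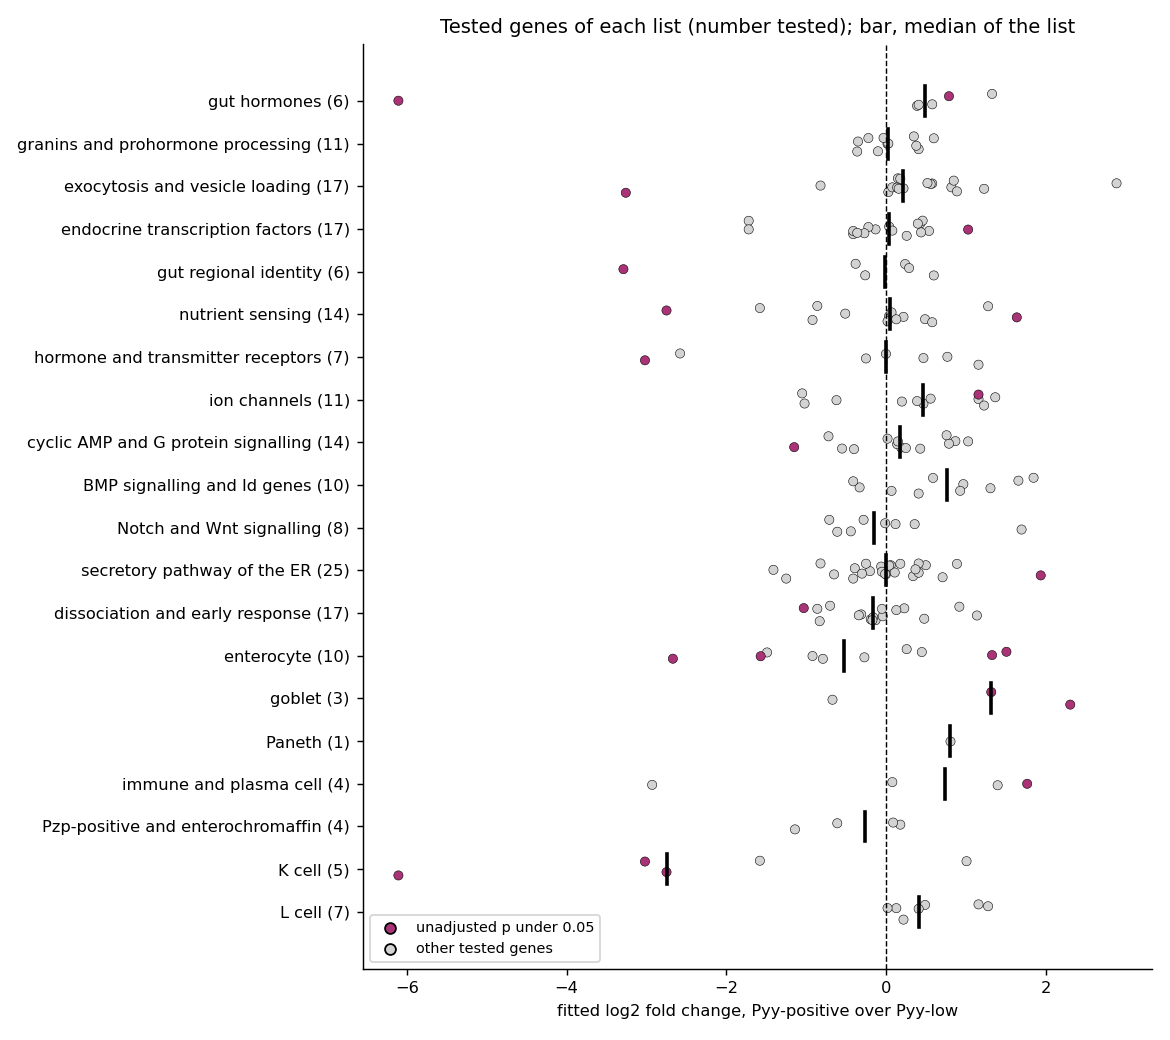
Fitted log2 fold change of Pyy-positive over Pyy-low (horizontal axis) for each tested gene of the lists, with the number tested in brackets, the median of the list as a bar, the median over all genes as a dashed line and genes of unadjusted p under 0.05 in purple. Medians of most lists lie near 0; the K-cell list lies at -2.75 and the goblet list, with 3 genes, at 1.32.

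Markers of the cell types not yet described differed widely in their summed levels, lowest for tuft cells and highest for enterocytes. Summed levels, given as the range over the 3 sums, were 4.70 to 24.9 CPM in Pyy-low and 13.8 to 36.7 CPM in Pyy-positive cells for 10 Paneth markers, 6 of them without a read, with Lyz1, lysozyme, the highest. For 10 tuft markers they were 2.37 to 8.52 and 0 to 7.07 CPM (Avil highest), for 15 stem and cycling markers 27.3 to 53.3 and 21.1 to 41.7 CPM (Top2a highest), and for 15 stromal and neural markers 12.4 to 47.03 and 6.04 to 40.04 CPM (Col1a2 highest). The 16 immune and plasma cell markers had 114 to 292 and 33.1 to 316 CPM. The antibody gene Igkc was at 86.2, 16.6 and 0 CPM in Pyy-low and 137, 128 and 0.0340 CPM in Pyy-positive cells, so its reads were in the shallow pools (fold change 1.77 ± 0.70, unadjusted edgeR p = 0.0362). The 12 markers of Pzp-positive and enterochromaffin cells had 593 to 977 and 572 to 605 CPM, led by Ddc, aromatic amino acid decarboxylase, at 339, 437 and 535 CPM against 277, 258 and 313 CPM (-0.61 ± 0.28). Tph1, which makes serotonin, reached at most 0.442 CPM.

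The 14 enterocyte markers summed to 1938 to 3881 CPM in Pyy-low and 2487 to 3859 CPM in Pyy-positive cells, with the highest mean over both sides for Fabp2, a fatty acid binding protein, at 497, 1005 and 1009 CPM against 1058, 1692 and 722 CPM (0.45 ± 0.35). Sis, sucrase-isomaltase, was close to it at 945, 802 and 921 CPM against 991, 1397 and 869 CPM (0.26 ± 0.28), and both were read in all 58 cells. Of 10 tested, 4 had an unadjusted edgeR p under 0.05, in both directions. Anpep, an aminopeptidase of the brush border, had 68.98, 288 and 135 CPM against 562, 320 and 366 CPM (1.51 ± 0.54), and Apob, the apolipoprotein of chylomicrons, 40.8, 26.1 and 37.4 CPM against 102, 122 and 54.4 CPM (1.33 ± 0.50). The lower ones were Fabp1, at 31.4, 36.7 and 609 CPM against 0, 25.7 and 54.7 CPM (-2.67 ± 0.82), and Rbp2, at 196, 393 and 506 CPM against 194, 75.5 and 109 CPM (-1.57 ± 0.52). A single Pyy-low cell of pool SLX-9703 carried 31349 CPM of enterocyte markers, where the next highest of the 58 cells had 6842 CPM. It held 93.6% of the Fabp1 and 94.2% of the Rbp2 reads of its sum, and 17.5% of its reads were mitochondrial. Whether its well held more than 1 cell was not tested. It held 0.205% of the Agr2, 2.39% of the Tff3 and 0.0369% of the Onecut3 reads of that sum.

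Outside the lists, the genes of smallest p with the same direction in every pool were taken, 10 higher and 9 lower, and none passed the edgeR adjustment. The lower set in Pyy-positive cells was led by Cdkn1c, the imprinted cell cycle inhibitor p57 (chr7:143458339-143461050, minus strand, overlapping Gm44732). It had 190, 242 and 229 CPM in Pyy-low and 31.7, 43.8 and 93.8 CPM in Pyy-positive cells, groups that did not overlap, with a fold change of -2.07 ± 0.41 (unadjusted edgeR p = 0.00110, DESeq2 adjusted p = 0.00484). In each pool 1 Pyy-low cell held 64.5%, 68.6% and 63.04% of these reads. Without that cell the sums were 80.3 against 29.6, 89.5 against 33.5 and 132 against 97.5 CPM of summed reads, still lower on the Pyy-positive side of each pool, but when the Gip-rich cells were left out as well they were 35.5 against 29.6, 20.1 against 33.5 and 155 against 97.5 CPM, with the order turned in pool SLX-11179 (checks chosen after the values were seen). Counted by cell the order was different: a read was found in 16 of 26 Pyy-low and 25 of 32 Pyy-positive cells, the cell medians were 23.4 against 10.7, 0 against 29.6 and 20.1 against 71.2 CPM, and the difference of mean log levels was 0.28, with the sign turned.

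Bclaf1, a transcription and splicing factor, had 125, 152 and 127 CPM against 35.03, 42.3 and 41.5 CPM, groups that did not overlap (fold change -1.76 ± 0.38, unadjusted edgeR p = 0.00200). Its cell medians were 11.03 against 10.7, 60.5 against 16.2 and 149 against 22.1 CPM, close to each other in pool SLX-11175 and lower on the Pyy-positive side of the other pools. Ppp6c, a protein phosphatase, had 132, 111 and 70.8 CPM against 33.4, 16.6 and 29.9 CPM (-1.94 ± 0.49). Gucd1, which overlaps Snrpd3 and Upb1 among others, had 95.6, 158 and 74.01 CPM against 36.7, 31.7 and 23.2 CPM (-1.79 ± 0.44), and Slc35g1, a membrane transporter, 70.5, 116 and 84.01 CPM against 5.005, 1.51 and 30.1 CPM (-3.31 ± 0.89).

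The remaining genes of the lower set rested on few cells. Nup133, a nuclear pore protein, and Clp1, an RNA kinase, had no read in the 32 Pyy-positive cells, of which 20 were in the shallow pools. In Pyy-low cells they were read in 8 and 7 of 26 cells, and a single cell held 100%, 70% and 96.8% of the Nup133 and 93.3%, 100% and 59.6% of the Clp1 reads. Decr1, a mitochondrial enzyme of fatty acid oxidation, had 212, 21.3 and 28.9 CPM against 0, 0 and 5.13 CPM, with 96.3%, 88.9% and 77.6% of the Pyy-low reads in 1 cell per pool. Gemin5, of the complex that assembles spliceosomal particles, had 70.5, 72.2 and 15.3 CPM against 0, 1.51 and 3.16 CPM.

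The higher set was Mpzl1, Clcn7, Sv2a, Proser1, Pdxdc1, Stk4, Pkp1, Cyp4b1, Manea and Dusp8, with unadjusted edgeR p from 0.00517 to 0.0147 and no call by DESeq2 either. Mpzl1, a membrane glycoprotein, had 12.5, 41.5 and 21.1 CPM in Pyy-low and 95.1, 145 and 54.1 CPM in Pyy-positive cells (1.96 ± 0.51). The cell medians of Mpzl1 were 0 against 108, 0 against 87.96 and 17.7 against 15.1 CPM, with the order turned in pool SLX-9703. Clcn7, the lysosomal chloride and proton exchanger, had 3.14, 1.18 and 8.23 CPM against 48.4, 21.1 and 48.7 CPM (3.36 ± 0.87), with a read in 6 of 26 and 12 of 32 cells. The cell medians of Clcn7 were 0 on both sides of the shallow pools and 0.460 against 0 CPM in pool SLX-9703. The highest Pyy-positive cell of that pool had 488 CPM. Sv2a, a secretory and synaptic vesicle glycoprotein, had 0, 0 and 0.448 CPM against 18.4, 31.7 and 11.2 CPM, from 3 of 26 and 5 of 32 cells. Cyp4b1, a cytochrome P450, was the most widely read of the set, in 24 of 26 and 31 of 32 cells. It had 119, 186 and 253 CPM against 215, 363 and 480 CPM (0.91 ± 0.29), and its cell medians were higher on the Pyy-positive side of each pool, at 117 against 183, 96.5 against 220 and 343 against 507 CPM.

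Within the 20 Gcg-high cells of the deep pool, the level of Pyy could be ranked against every gene with a read in at least 10 of them. The 5 genes of 9191 with the highest Spearman correlation with Pyy were Gm14964 (0.76), Taf13, a subunit of the basal transcription factor TFIID (0.69), Jakmip1 (0.67), Gm43490 (0.64) and Gm43484 (0.62). These are the extremes of a large number of genes in 1 library pool and are given as a description. Gm14964, Gm43490 and Gm43484 overlap Nrxn2, Cacna2d1 and Spata5, and Jakmip1 overlaps Gm1043 among others. Over all 32 Pyy-positive cells, Gm14964 had 55 reads and Gm43484 had 22. Taf13 was read in 3 of 8 Pyy-low and 11 of 12 Pyy-positive cells of this pool. It was read in 0 of 10 and 3 of 9 cells of pool SLX-11179, but in 1 of 8 and 1 of 11 cells of pool SLX-11175. The same ranking gave 0.47 for Gcg, 0.25 for Agr2, 0.26 for Tff3, -0.12 for Cck, -0.13 for Gip and -0.50 for Cd24a, a surface glycoprotein that DESeq2 called lower in Pyy-positive cells (adjusted p = 0.0213; chosen after its values were seen).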

How the data were processed

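Single cells were sequenced by Smart-seq2. Per the submitters' processing notes, GSNAP aligned the reads to mm10 and HTSeq (version 0.5.3p3) counted them. The authors deposited raw counts for 46078 mouse genes, 92 spike-ins and 5 lines without a gene; these lines hold 77.6% of all counts and stayed out, as did 4 columns that match no sample. Symbols and coordinates come from GENCODE M21 (mm10; 45229 identifiers matched). Unstranded counts cannot separate overlapping genes.

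Counts of cells were summed per pool and side (642323 to 28313616 reads). With the pool as block, p-values rest on how much the difference between the sides varied over the 3 pools, not on differences in level between pools. edgeR 4.0.16 (filterByExpr, TMM, quasi-likelihood, pool as block, Benjamini-Hochberg, FDR 0.05) was the test; DESeq2 1.42.0 and limma 3.58.1 (pseudocount 1) were alternatives. The standard error is the fold change over the root of its F statistic. After removing side means, both sums of a pool correlated at 0.0624, 0.0624 and 0.296, and different pools at -0.151 to 0.068; the block rests on the pool named in the labels. Fitting was tested on simulated data, where success was required only for large changes at a low spread set by hand. That requirement does not cover the spread estimated from these sums. No doublet caller was run, and by the study's account wells with several cells could not be wholly avoided.

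Members and lists were chosen with earlier results of these data known. Named were hormones reaching 100 CPM, up to 4 called genes or else the 2 largest consistent changes per role list, the highest marker per cell type, 10 genes each way outside the lists and 5 genes most like Pyy. One gene that this rule names is not reported here. Others named are list members with unadjusted p under 0.05, or were picked after their values were seen: Ucn3, Sst, Ppy, Lpl, Neurod1, Gpr119, Ffar1, Chga, Abcc8, Il6ra, Trpa1, Id1, Sis, Pcsk1, Cpe, Muc2, Fcgbp, Clca1, Ccl9 and Tph1.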

Additional observations from a re-analysis of the deposited data

How the results depend on the processing

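Leaving out the pool as a block (no pairing of the sums) gave 0 other genes, and the block changed no other call. Of 23 alternatives, 16 gave 0 genes other than Pyy and Gcg, and the others gave 19 (DESeq2), 16 (no low-count filter), 3 (cells thinned to 20000 reads), 2 (limma on mean log2(CPM + 1)) and 2 (limma on the log of the mean CPM, added after seeing the data); leaving out 1 pool gave 0 to 10, with 5 without pool SLX-11175, 10 without pool SLX-11179 and 0 without pool SLX-9703. The cause of these differences was not tested. The share of Pyy-positive cells ran from 43.1% to 62.7%, within the counting interval of 41.5 to 68.3%. Agr2 passed in 7 alternatives and Gip in 6, with lowest adjusted p of 5.05e-11 and 1.18e-141; Gip was -0.66 without the Gip-rich cells. No cell reached the immune limit, so that alternative repeats the sums.

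Over 61 named genes, 1310 of 1337 values kept their direction. With limma on mean log levels, Nts (-0.12), Pde4d (-0.02), Hspa8 (0.11), Lyz1 (-0.33), Cdkn1c (0.28), Jakmip1 (0.22) and Rbp2 (0.31) turned, and with the log of mean CPM, Ghrl (-0.01) and Chgb (-0.05). Nts also turned without the block (-0.70), at 3000 CPM of Gcg (-0.45), when thinned (-0.26), and ran from -0.92 to 2.95 with 1 pool left out. Lyz1 turned at 30000 CPM of Gcg (-0.22) and, without pool SLX-11175, to -0.71, within a range of -0.71 to 2.61. Chgb turned without the filter (-0.00), by total reads alone (-0.17), at 50 CPM of Pyy (-0.02), at 50000 reads (-0.04), at 10% mitochondrial reads (-0.03) and without the enterocyte-rich cell (-0.03), and ran from -0.16 to 0.17 with 1 pool left out. Jakmip1 turned without the block (0.03) and without the Gip-rich cells (0.26), and ran from -2.51 to 1.86 with 1 pool left out.

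Depth limits the shallow pools, where a cell with 24217 reads cannot show a gene of few CPM, and 3 pools give few degrees of freedom. The Pyy threshold cuts a continuous range.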
